A study of Mus musculus with 8 samples.

Results

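The comparison described here is that of the CREB inhibitor 666-15 with vehicle in wild type (WT) mouse kidney cells, across autosomal genes. Its members are the autosomal genes with enough counts to be tested, 16841 of the 50167 autosomal genes in a table of 55304. RNA-seq was run on cells that bind DBA, a plant lectin that labels collecting duct epithelium, isolated from the kidneys of WT mice and of mice labelled ADPKD, the model of autosomal dominant polycystic kidney disease. The WT vehicle group received DMSO and the WT inhibitor group 666-15 at 5 mg/kg, both once daily in cycles of 5 days with 2 days of rest, from postnatal day 11 for 3 weeks. Each group had 2 libraries, and the ADPKD groups (vehicle and inhibitor, 2 libraries each, same schedule) served only to estimate the spread and to test differences between genotypes. The labels name these isolated cells as the source of every sample, but the protocol also speaks of whole kidney RNA going into the libraries, a conflict the sources used here do not settle. Neither the mutated gene of the ADPKD mice nor a Cre driver, strain or age at collection was given in the labels. Nothing there states whether replicates were different animals. The sex-linked counts given below place the 2 WT inhibitor libraries in different animals, and do not settle this for the other groups. P-values therefore measure only the spread between libraries, which may be technical in part.

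CREB is a transcription factor that is phosphorylated by protein kinase A when cAMP rises. It binds the cAMP response element in promoters, recruits the coactivators CBP (Crebbp) and p300 (Ep300), and is helped by the CRTC proteins. In the collecting duct, vasopressin raises cAMP in principal cells, which take up water through aquaporins and sodium through the epithelial sodium channel, while intercalated cells move acid and base. The compound 666-15 is a small molecule that blocks transcription driven by CREB.

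The WT libraries held 15108793 to 18995629 counts. WT inhibitor replicate 2 stood apart: by its counts it came from female tissue, while the labels used here give no sex. It held 17688 Xist counts, against no more than 8 in any of the 7 remaining libraries, and 0 for each of the Y-linked genes Uty, Kdm5d, Eif2s3y and Ddx3y, against 263 or more. Sex was therefore not balanced between the WT groups, and the WT count of each gene list below is also given without this library. Levels are in CPM, the count of a gene relative to the library's TMM-scaled total. Levels are listed as vehicle 1, vehicle 2, inhibitor 1 and inhibitor 2, fold changes are fitted log2 values (1 is a 2-fold rise) ± SE with n = 2 libraries in each group, and a gene was called when edgeR's quasi-likelihood test gave an adjusted p below 0.05.

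With the inhibitor, 2329 autosomal genes (13.8% of those tested) were higher and 1974 (11.7%) were lower, 4303 (25.6%) in all. Those called and changed at least 2-fold numbered 1621 (9.63%), 830 upward and 791 downward. Bracketed shares in this paragraph are of all autosomal genes tested. The levels of the vehicle and inhibitor libraries did not overlap for 10797 genes (64.1%), 5318 higher and 5479 lower with the inhibitor. A lack of overlap is thus common and by itself sets a gene little apart. The calls followed the depth of a gene: 6.55% were called among the 4211 genes of lowest mean CPM and 46.4% among the 4210 of highest. Called shares of the gene lists below are set beside all autosomal genes and were not matched for depth. Without the female library, part of the 4303 calls were lost, as counted below. Single vehicle libraries moved the count further, to 2321 without vehicle replicate 1 and to 2791 without vehicle replicate 2. The call held in every fit that left out a WT library for 2019 genes (12.0%), 1159 higher and 860 lower. Higher genes made up 54.1% of the calls here but 41.0% (1766 higher, 2543 lower) when only genes of at least 5 CPM in 2 libraries were kept and scaled.

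**Figure D1:**
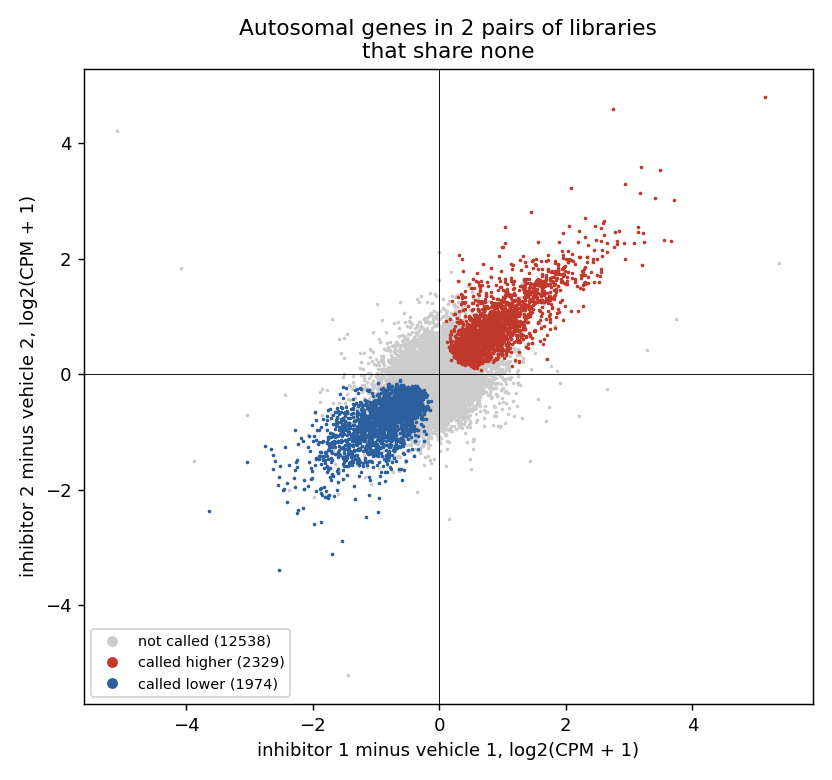
Difference between inhibitor and vehicle in log2(CPM + 1) for each of the 16841 autosomal genes, from inhibitor 1 minus vehicle 1 (horizontal axis) and from inhibitor 2 minus vehicle 2 (vertical axis). Red points were called higher (2329), blue points lower (1974) and grey points were not called. The calls were made from these same libraries, so the place of called genes along the diagonal follows from the call.

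The plot of library pairs, read over all genes whether called or not, shows how far the differences repeated. Across genes, which are not independent replicates, inhibitor 1 minus vehicle 1 and inhibitor 2 minus vehicle 2 correlated at Pearson r = 0.737, and the other pairing of the same libraries gave 0.702. Log2 CPM correlated at 0.987 between the vehicle libraries, at 0.978 between the inhibitor libraries and at 0.954 to 0.961 between the groups.

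The cell type markers were read first, because they bear on every other list. Most markers of principal cells were called higher and most of those of the proximal tubule lower. The 21 autosomal principal cell markers took 0.443% and 0.494% of all counts in the vehicle libraries and 1.38% and 1.35% in the inhibitor libraries. The 25 proximal tubule markers, genes of a nephron segment that DBA does not usually label, took 2.75% and 2.38% with vehicle and 0.987% and 1.03% with the inhibitor. Whether the libraries came from isolated cells or whole kidney bears on what these shares mean, and the labels give both. In bulk samples, fewer cells of a type and less RNA of that type per cell cannot be told apart. What part the mix of cells has in the other results was not tested.

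**Figure D2:**
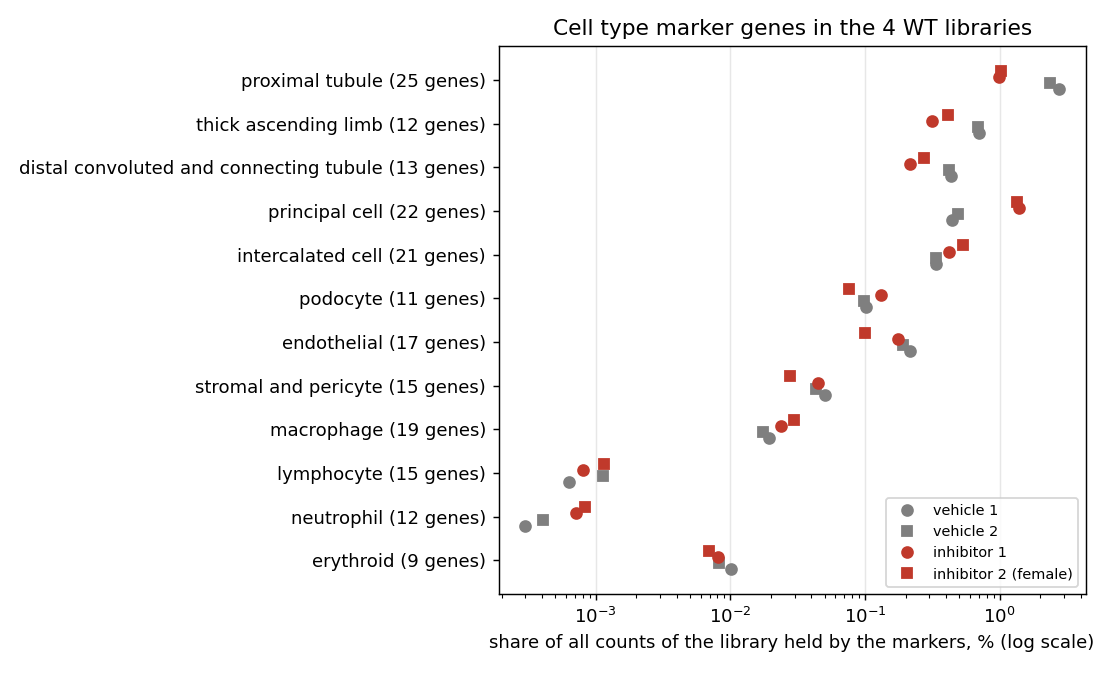
Share of each WT library's counts (percent, log scale) held by the autosomal markers of 12 cell types. Brackets give the number of marker genes in the count table, on any chromosome. Grey points are vehicle, red points the inhibitor, and squares mark replicate 2. Principal cell markers lie near 0.443% to 0.494% with vehicle and 1.35% to 1.38% with the inhibitor, and proximal tubule markers shift the opposite way.

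Of the 21 principal cell markers tested, 19 were higher and 0 lower, beside 13.8% higher among all autosomal genes, with a median log2 fold change of 1.91 against -0.008 over all genes. All 19 were also called in each fit that left out a WT library. Scnn1g, the gamma subunit of the epithelial sodium channel, was at 52.8 and 72.2 CPM with vehicle and 385 and 409 CPM with the inhibitor, a change of 2.67 ± 0.13, adjusted p = 2.65e-07. Its partner subunits rose too, Scnn1b from 108 and 144 to 645 and 645 CPM (2.36 ± 0.15) and Scnn1a from 216 and 246 to 655 and 646 CPM (1.5 ± 0.15). For all 3 subunits each inhibitor library lay above both vehicle libraries, as it did for 5318 autosomal genes in all. Aqp2, the vasopressin-regulated water channel of the apical membrane, was at 276 and 412 CPM with vehicle and 1543 and 2078 CPM with the inhibitor (2.4 ± 0.31, adjusted p = 0.0022). The basolateral water channels rose as well, Aqp3 by 1.87 ± 0.18 and Aqp4 by 1.91 ± 0.23. Hsd11b2, which inactivates glucocorticoids and so leaves the mineralocorticoid receptor to aldosterone, was at 248 and 335 CPM with vehicle and 1885 and 1626 CPM with the inhibitor (2.59 ± 0.15, adjusted p = 9.55e-07). The receptor itself, Nr3c2, went from 17.6 and 23.7 to 72 and 89 CPM (1.96 ± 0.19). The members that did not pass the test were Stc1 (0.39 ± 0.21) and Hoxb7 (0.35 ± 0.23).

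Epithelial keratins and transcription factors of the collecting duct were among the same calls. Krt7 was at 193 and 230.1 CPM with vehicle and 836 and 904 CPM with the inhibitor (2.04 ± 0.10, adjusted p = 2.65e-07), and Krt18 at 419 and 427 CPM with vehicle and 1470 and 1371 CPM with the inhibitor (1.75 ± 0.10, adjusted p = 3.33e-07). Elf5, an ETS factor, went from 2.94 and 4.135 to 22.9 and 26.5 CPM (2.81 ± 0.26), Ehf of the same family from 123 and 135 to 360.4 and 421 CPM (1.6 ± 0.12), and Gata3 from 28.3 and 35.7 to 80.9 and 83.1 CPM (1.36 ± 0.15). Every one of these genes was higher in both inhibitor libraries than in either vehicle library, as were 5318 autosomal genes in all.

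Of 21 intercalated cell markers, 12 were higher and 0 lower, 10 and 0 without the female library (median 0.92; 57.1% higher beside 13.8% of all autosomal genes). Aqp6, a channel of intracellular vesicles in these cells, was at 82.8 and 93.3 CPM with vehicle and 323 and 397 CPM with the inhibitor (2.03 ± 0.13, adjusted p = 8.27e-07). The anion exchanger Slc4a1 went from 54.2 and 70.2 to 175 and 212 CPM (1.64 ± 0.18), and the proton pump subunit Atp6v1b1 from 194 and 193 to 333 and 363 CPM (0.85 ± 0.095). Foxi1, the factor that specifies intercalated cells, was at 37.4 and 39.6 CPM with vehicle and 72.5 and 79 CPM with the inhibitor (0.98 ± 0.21, adjusted p = 0.00618). That call was kept in 2 of the 4 fits that left out a WT library.

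Among 25 proximal tubule markers, 19 fell and 0 rose, beside 11.7% lower among all genes (median -1.24, and -1.48 with 16 lower without the female library). Slc34a1, the main phosphate carrier of the brush border, was at 3501 and 3967 CPM with vehicle and 1376 and 1494 CPM with the inhibitor (-1.38 ± 0.10, adjusted p = 1.14e-06). Acsm2, an acyl-CoA synthetase of proximal cells, was at 1093 and 1201 CPM with vehicle and 272 and 344 CPM with the inhibitor (-1.9 ± 0.13, adjusted p = 7.75e-07). Endocytic receptors fell with them, Cubn from 362 and 302 to 111 and 142 CPM (-1.4 ± 0.13) and Lrp2 from 1415 and 1425 to 419 and 573 CPM (-1.52 ± 0.20). Hnf4a, the factor that drives proximal tubule identity, went from 177 and 188 to 76.8 and 96 CPM (-1.08 ± 0.16). In the thick ascending limb 7 of 12 markers fell (58.3%) and 0 rose (6 lower without the female library), among them Umod, the gene of uromodulin, from 2579 and 2753 to 1183 and 1425 CPM (-1.03 ± 0.13). In the distal convoluted and connecting tubule 6 of 12 fell (50%) and 0 rose (7 lower without the female library), with Slc12a3, the thiazide-sensitive cotransporter, going from 1849 and 1710 to 713 and 811 CPM (-1.22 ± 0.10).

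Markers of other cells were scarcer and less stable. The share called was 42.1% of macrophage, 27.3% of podocyte, 17.6% of endothelial and 6.67% of stromal markers, beside 25.6% of all autosomal genes. Of 19 macrophage markers 8 were higher and 0 lower, 5 and 0 without the female library, and 4 higher without either vehicle library in turn. Their summed share was 0.0195% and 0.0176% with vehicle and 0.0238% and 0.0299% with the inhibitor. Lyz2, the macrophage lysozyme, was at 2.94 and 4.135 CPM with vehicle and 12 and 20.4 CPM with the inhibitor (2.21 ± 0.31, adjusted p = 0.000829). Podocyte markers gave 3 higher and 0 lower of 11, but 8 higher without inhibitor replicate 2, 1 without vehicle replicate 2 and 0 without vehicle replicate 1 or inhibitor replicate 1. Endothelial markers gave 3 lower and 0 higher of 17; they gave 13 lower without inhibitor replicate 1, 0 without vehicle replicate 1, and 1 lower and 1 higher without the female library. Stromal markers gave 1 lower and 0 higher of 15, but 3 higher and 0 lower without the female library. Neutrophil markers gave 2 higher of 6 (1 without the female library), erythroid markers 1 higher of 7 (0 without it) and lymphocyte markers 0 of 8 in either fit.

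For the target of the drug, mRNA of Creb1 itself was not called. Creb1 (mm10, chr1:64532645-64604548) was at 41.6 and 44.65 CPM with vehicle and 36 and 33.7 CPM with the inhibitor, below both vehicle libraries in each inhibitor library, with -0.31 ± 0.12, adjusted p = 0.0733. Its relatives Atf1 (0.20 ± 0.11) and Crem (0.017 ± 0.12) and the CRTC coactivators Crtc1 (0.26 ± 0.17), Crtc2 (0.29 ± 0.13) and Crtc3 (0.24 ± 0.12) did not pass the test either. The fitted direction of Crem turned under another scaling and when single libraries were left out. Crebbp, the coactivator CBP, rose: it was at 69 and 79.7 CPM with vehicle and 110.1 and 122 CPM with the inhibitor (0.64 ± 0.12, adjusted p = 0.00139), in all 4 fits that left out a WT library. The paralog Ep300 was at 110.3 and 118 CPM with vehicle and 130.1 and 135 CPM with the inhibitor (0.22 ± 0.11, adjusted p = 0.166).

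Over 44 genes of the CREB family, its coactivators and the cAMP pathway, 10 were higher and 7 lower, 10 and 5 without the female library, and 5 and 2 without vehicle replicate 1. The share called was 38.6%, beside 25.6% of all autosomal genes, and the median was 0.20. Phosphodiesterases, which break down cyclic nucleotides, were among the rises: Pde3b was at 20.5 and 27.3 CPM with vehicle and 87.1 and 109 CPM with the inhibitor (2.04 ± 0.17, adjusted p = 9.34e-06), and Pde4b at 239 and 266 CPM with vehicle and 474 and 482 CPM with the inhibitor (0.92 ± 0.11, adjusted p = 5.3e-05). Pde4d, of the same family, fell from 30.8 and 27 to 19.55 and 15.1 CPM (-0.74 ± 0.16). Gnas, whose locus encodes the stimulatory G protein alpha subunit, was at 67.1 and 66.2 CPM with vehicle and 42.1 and 35.1 CPM with the inhibitor (-0.79 ± 0.11, adjusted p = 0.000232). Adcy4, an adenylyl cyclase, went from 40.8 and 37.6 to 20.3 and 14 CPM (-1.19 ± 0.19). Pkib, a protein kinase A inhibitor, rose from 2.94 and 3.6 to 8.08 and 8.48 CPM (1.34 ± 0.29), and the catalytic subunit Prkaca from 43.5 and 42.9 to 59 and 57.4 CPM (0.43 ± 0.11).

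Genes known from textbooks as induced by CREB moved in both directions. Of 33 such genes 30 were tested; 11 were higher and 5 lower, a called share of 53.3% beside 25.6% of all, with a median of 0.21. Without the female library 13 were higher and 3 lower, and without vehicle replicate 1 the counts were 6 and 1. Fos, a classical CREB target among the immediate early genes, was at 450.3 and 526 CPM with vehicle and 988 and 951 CPM with the inhibitor (0.99 ± 0.10, adjusted p = 1.97e-05), higher with the inhibitor. Fosb was at 523 and 674 CPM with vehicle and 1244 and 1138 CPM with the inhibitor (0.99 ± 0.14, adjusted p = 0.00027), and the stress factor Atf3 at 533 and 649.7 CPM with vehicle and 1109 and 1253 CPM with the inhibitor (1.0 ± 0.11, adjusted p = 2.97e-05). In all 3 genes both inhibitor libraries lay above both vehicle libraries, and the call held in each of the 4 fits that left out a WT library. Gadd45b (0.82 ± 0.093), Gem (0.64 ± 0.095), Egr1 (0.36 ± 0.10), Nr4a1 (0.67 ± 0.18), Ppargc1a (0.75 ± 0.16), Ccnd1 (0.49 ± 0.11) and Irs2 (0.50 ± 0.11) were also higher. Bdnf, the neurotrophin gene, fell: it was at 9.76 and 7.56 CPM with vehicle and 0.994 and 2.59 CPM with the inhibitor (-2.26 ± 0.39, adjusted p = 0.000831). The other falls were Sik1 (-0.47 ± 0.14), a kinase that restrains the CRTC proteins, Pde4d, Nos1 (-1.34 ± 0.43) and Id1 (-0.59 ± 0.14). Pck1, the gluconeogenic enzyme, was at 1832 and 1453 CPM with vehicle and 508 and 889 CPM with the inhibitor and was not called (-1.23 ± 0.37, adjusted p = 0.0704). Many of these genes also respond to tissue dissociation: in a list of 28 dissociation-induced and immediate early genes 12 were higher and 3 lower, 53.6% called (11 and 2 without the female library, 7 higher without vehicle replicate 1), and the part of cell isolation was not tested.

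The cAMP response element was then looked for in the promoters. The window was RefSeq's 250 bases before and 50 bases after the gene start (GRCm38.p6), which covered 11637 of the 16841 genes (69.1%). The full element is the palindrome TGACGTCA; the shorter form TGACG was searched on both strands and lies within every full element. Sequences below are shown because they hold the full element upstream of the start in the called genes with the greatest rises and falls, a choice made with the fold changes known. They run 5′ to 3′ on the strand of the gene, and capitals mark the element.
Cdkn2b (chr4:89311046-89311103, minus strand): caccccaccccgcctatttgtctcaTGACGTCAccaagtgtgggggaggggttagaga
Cldn6 (chr17:23679300-23679357, plus strand): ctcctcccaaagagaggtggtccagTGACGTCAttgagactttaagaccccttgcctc
Cldn7 (chr11:69965358-69965415, plus strand): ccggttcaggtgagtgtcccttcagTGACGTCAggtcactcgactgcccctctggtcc
Cds1 (chr5:101764993-101765050, plus strand): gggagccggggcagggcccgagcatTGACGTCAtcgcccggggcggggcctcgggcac
Meg3 (chr12:109540914-109540971, plus strand): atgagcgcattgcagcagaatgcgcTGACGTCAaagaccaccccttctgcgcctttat
Galnt11 (chr5:25222818-25222871, plus strand): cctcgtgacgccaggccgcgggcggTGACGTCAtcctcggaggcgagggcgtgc
Abcg2 (chr6:58640484-58640541, plus strand): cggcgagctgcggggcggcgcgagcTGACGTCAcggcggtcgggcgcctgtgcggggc
Pdpr (chr8:111094572-111094629, plus strand): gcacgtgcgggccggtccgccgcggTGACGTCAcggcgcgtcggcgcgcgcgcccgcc

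The genes of this set code for different things. Cdkn2b encodes a cyclin-dependent kinase inhibitor and was at 7.82 and 9.39 CPM with vehicle and 30 and 27.8 CPM with the inhibitor (1.75 ± 0.16, adjusted p = 7.11e-06). Cldn7, a tight junction claudin, was at 179 and 193 CPM with vehicle and 596 and 475 CPM with the inhibitor (1.53 ± 0.12, adjusted p = 1.89e-06), and Cldn6, of the same family, rose by 1.62 ± 0.20. Cds1, an enzyme of phospholipid synthesis, rose by 1.28 ± 0.10. On the falling side, Abcg2, an efflux transporter, was at 251 and 266 CPM with vehicle and 119.8 and 116 CPM with the inhibitor (-1.13 ± 0.11, adjusted p = 9.52e-06), and Meg3, a long noncoding RNA, Galnt11, a glycosyltransferase, and Pdpr, a regulator of pyruvate dehydrogenase, changed by -1.88 ± 0.33, -1.16 ± 0.11 and -0.99 ± 0.20.

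Promoters of some list members follow. Areg and Dusp1, of the textbook list, and Prkar1a, of the CREB family and cAMP list, hold the full element. Fos, Fosb, Nr4a1 and Atf3, of the textbook list, hold the shorter form in the stretch shown. They were picked by hand and all were called higher. Of the 17 textbook members with the shorter form 6 were higher and 2 lower, and the others were not called.
Areg (chr5:91139513-91139570, plus strand): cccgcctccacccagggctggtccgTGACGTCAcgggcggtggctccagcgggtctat
Dusp1 (chr17:26508583-26508640, minus strand): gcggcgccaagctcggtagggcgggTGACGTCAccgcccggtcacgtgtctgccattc
Prkar1a (chr11:109650875-109650932, plus strand): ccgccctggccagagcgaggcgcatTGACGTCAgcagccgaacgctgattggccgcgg
Fos (chr12:85473799-85473853, plus strand): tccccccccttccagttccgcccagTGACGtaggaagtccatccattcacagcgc
Fosb (chr7:19310076-19310130, minus strand): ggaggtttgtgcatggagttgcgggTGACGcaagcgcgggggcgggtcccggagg
Nr4a1 (chr15:101266781-101266835, plus strand): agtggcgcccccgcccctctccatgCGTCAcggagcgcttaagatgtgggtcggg
Atf3 (chr1:191183334-191183365, minus strand): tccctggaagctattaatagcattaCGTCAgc

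Both forms were then counted by call. TGACGTCA was found in a promoter of 391 of the 11637 genes (3.36%). Counted by single promoter, it was in 1.83% of all 31396 autosomal promoters in the RefSeq table. A gene can have several promoters, so shares of genes and of single promoters cannot be compared. Of these 391 genes 66 were higher and 27 lower, a called share of 23.8% beside 27.3% of the 11637 genes with a promoter, with a median of 0.060 against -0.004 for genes without it. By call, 3.76% of higher genes, 1.91% of lower genes and 3.52% of genes that were not called held it. The shorter form was in a promoter of 3840 genes (33%), of which 577 were higher and 413 lower (25.8% called, beside the same 27.3%). It was in 21% of the single promoters. In the textbook list, 22 of 30 members had a promoter; the full element was in Dusp1 (-0.29 ± 0.16) and Areg (0.27 ± 0.32), neither called, and the shorter form in 17, of which 6 were higher and 2 lower. In the CREB family and cAMP list, 34 of 44 had a promoter; Creb5 (0.31 ± 0.21, not called) and Prkar1a (0.36 ± 0.095, adjusted p = 0.0141) held the full element, and 19 held the shorter form, 6 of them higher and 3 lower. A match of letters is a description of these windows and does not show binding.

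The 15 genes with the greatest rises and the 15 with the greatest falls were taken from those called in every fit and at 5 CPM or more on average, 1057 higher and 773 lower; 14 of these rises are given, the largest of them for Mir8116 (4.11), Npy6r (3.83), Lars2 (3.56) and Ccl4 (3.55). Lif, a cytokine of the interleukin-6 family, was at 184 and 255 CPM with vehicle and 1732 and 1397 CPM with the inhibitor (2.83 ± 0.18, adjusted p = 3.36e-06). Trpv6, an epithelial calcium channel, was at 8.765 and 12.05 CPM with vehicle and 87.5 and 114 CPM with the inhibitor (3.28 ± 0.17, adjusted p = 2.99e-07). Btc, the EGF receptor ligand betacellulin, went from 5.23 and 6.025 to 42.7 and 33.8 CPM (2.77 ± 0.18). Adra1d, an adrenergic receptor, went from 5.48 and 8.45 to 54 and 45 CPM (2.84 ± 0.20), the chemokine Ccl4 from 1.2 and 1 to 8.35 and 17.7 CPM (3.55 ± 0.52), the neuropeptide Y receptor gene Npy6r from 0.8965 and 2.54 to 19.2 and 28.6 CPM (3.83 ± 0.37), the potassium channel Kcnh5 from 1.295 and 0.945 to 8.48 and 10.6 CPM (3.07 ± 0.36) and the collagen gene Col26a1 from 9.11 and 16.4 to 94.2 and 84.6 CPM (2.82 ± 0.25). Each inhibitor library exceeded both vehicle libraries for every gene named in this paragraph, as the choice of genes required.

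Several of the leading rises share reads or position with other genes. Ache, the gene of acetylcholinesterase, was at 12.75 and 19.1 CPM with vehicle and 179 and 163 CPM with the inhibitor (3.43 ± 0.22, adjusted p = 2.54e-06). Mir8116 (chr5:137293780-137293876) lies inside Ache (chr5:137287519-137294466) on the same strand, and its 0.299 and 1.12 CPM with vehicle and 14.3 and 9.68 CPM with the inhibitor (4.11 ± 0.63) cannot be told apart from reads of Ache. Omp (2.74 ± 0.24) lies inside Capn5 on the same strand, and Capn5 rose by 1.71 ± 0.10. Ufsp1, a UFM1-specific peptidase, went from 4.13 and 5.14 to 33.8 and 27.4 CPM (2.72 ± 0.30). It starts just past the end of Ache on the same strand (chr5:137294629-137295665), and the part of reads from Ache was not tested. Lars2, the mitochondrial leucyl-tRNA synthetase, was at 29.4 and 27.5 CPM with vehicle and 342 and 329.5 CPM with the inhibitor (3.56 ± 0.28, adjusted p = 0.000126). Genes chosen after their values were seen moved with it: an annotated rRNA gene, CT010467.1, was at 12.7 and 13.5 CPM with vehicle and 484 and 401 CPM with the inhibitor (5.08 ± 0.38), and the gene model Gm15564 at 0.249 and 0.177 CPM with vehicle and 5.7 and 3.54 CPM with the inhibitor (4.38 ± 0.66). Both inhibitor libraries were high and both vehicle libraries low for all 3, and whether ribosomal RNA left in the libraries has a part in the values of Lars2 was not tested.

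Mt2, a metallothionein, had the greatest fall of these 15, at 18.1 and 15.8 CPM with vehicle and 0.53 and 2.28 CPM with the inhibitor (-3.58 ± 0.43, adjusted p = 0.000134). Transporters and lipid genes were among the others. The organic cation transporter Slc22a2 was at 105 and 94.9 CPM with vehicle and 18.9 and 19.7 CPM with the inhibitor (-2.37 ± 0.16, adjusted p = 8.32e-07). Its relatives Slc22a28 (6.72 and 14.65 to 1.39 and 0.822 CPM, -3.26 ± 0.52) and Slc22a22 (24.6 and 24.3 to 3.84 and 5.88 CPM, -2.33 ± 0.26) and the amino acid carriers Slc7a12 (51.2 and 26.4 to 10.9 and 6.71 CPM, -2.14 ± 0.38) and Slc7a13 (18.9 and 14.5 to 4.51 and 2.66 CPM, -2.23 ± 0.37) fell as well. Apob, the apolipoprotein of lipid export, was at 36.9 and 42.9 CPM with vehicle and 7.02 and 7.34 CPM with the inhibitor (-2.47 ± 0.25, adjusted p = 1.47e-05). Cideb, a lipid droplet protein, went from 22.8 and 20.6 to 3.05 and 4.745 CPM (-2.47 ± 0.27), and Mogat2, an acyltransferase of fat synthesis, from 25.9 and 17.7 to 3.38 and 6.07 CPM (-2.2 ± 0.34). Dmgdh, a mitochondrial enzyme of choline breakdown, went from 67.7 and 38.8 to 10.9 and 10.6 CPM (-2.31 ± 0.34), and the aldo-keto reductase Akr1c21 from 105 and 111 to 21.5 and 20.9 CPM (-2.34 ± 0.30). Krt20, a keratin, went from 209.6 and 173 to 52.5 and 27.8 CPM (-2.26 ± 0.30). Atp5k (69.4 and 70.1 to 11.1 and 5.76 CPM, -3.05 ± 0.25) and Rpl23a (159 and 167 to 42.7 and 27.7 CPM, -2.21 ± 0.20) have near-identical copies in the genome, so their counts are uncertain. Members of the Slc22 and Akr1c families have related genes. Whether reads were shared between copies or relatives was not tested.

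**Figure D3:**
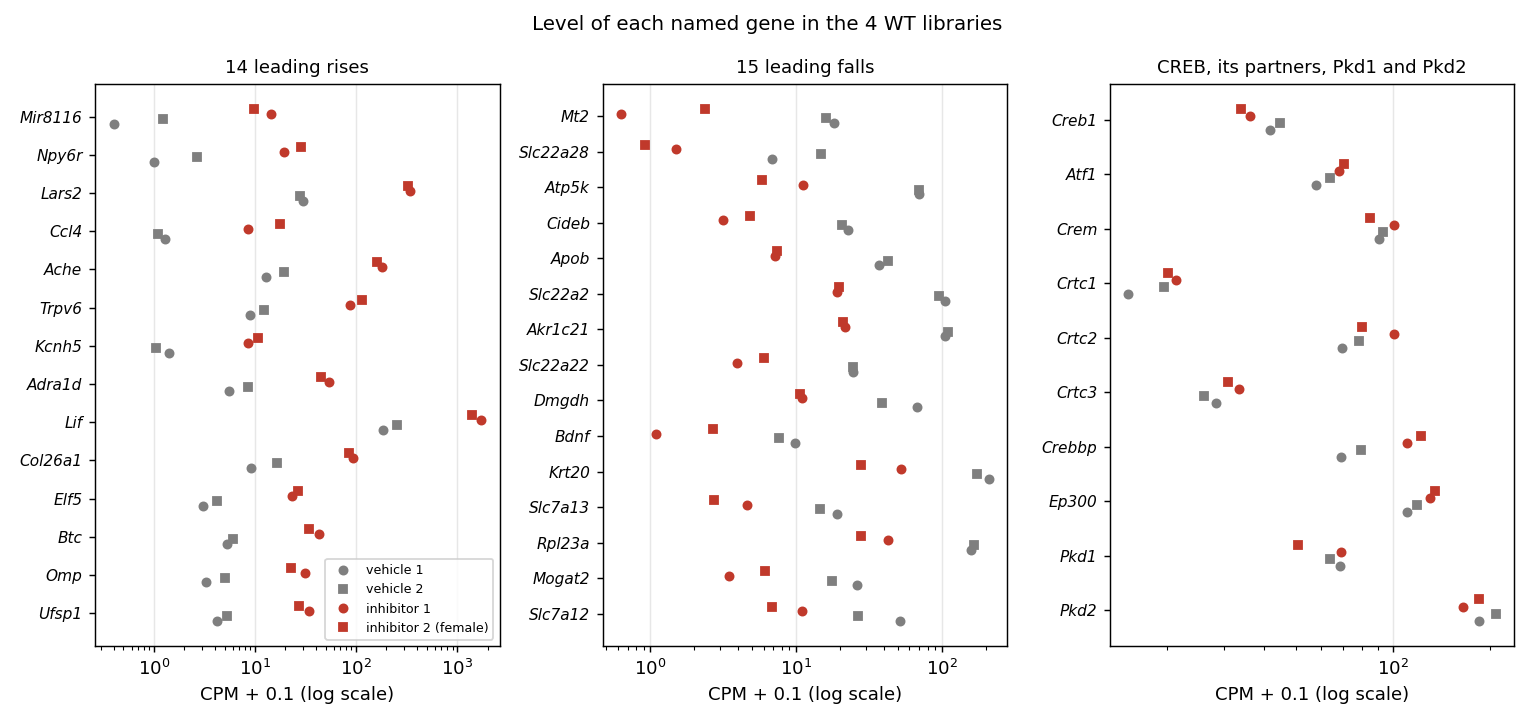
Level of 14 leading rises, the 15 leading falls and the CREB genes with Pkd1 and Pkd2 in each WT library, in CPM + 0.1 on a log scale; grey points are vehicle, red points the inhibitor, and squares mark replicate 2. The groups are apart in both left panels, as the choice of genes required, while the vehicle and inhibitor points of Crem (90.5 and 93.0 against 100.7 and 85.0 CPM) overlap.

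Among abundant genes, Clu, the chaperone clusterin, was at 893 and 890.1 CPM with vehicle and 3076 and 3096 CPM with the inhibitor (1.79 ± 0.18, adjusted p = 0.000112). Cldn4, a claudin of the collecting duct, was at 2401 and 2990 CPM with vehicle and 8546 and 7786 CPM with the inhibitor (1.6 ± 0.11, adjusted p = 9.49e-07). Cdh16, kidney cadherin, rose from 1510 and 1596 to 3494 and 3326 CPM (1.14 ± 0.11), and the sodium pump subunit Atp1b1 from 2208 and 2174 to 3614 and 3732 CPM (0.75 ± 0.10). The autophagy receptor Sqstm1 (0.44 ± 0.093), Krt8 (0.72 ± 0.095) and the membrane protein gene Emp1 (0.65 ± 0.12) rose by less. Gpx3, a secreted glutathione peroxidase made in the proximal tubule, was the most abundant gene called, at 21420 and 22860 CPM with vehicle and 12480 and 13720 CPM with the inhibitor (-0.76 ± 0.12, adjusted p = 0.000445).

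Mitochondrial energy metabolism held many called falls and no called rise in either of its lists. Of 29 nuclear-encoded subunits of oxidative phosphorylation 21 were lower and 0 higher (20 lower without the female library, 13 without vehicle replicate 1), beside 11.7% lower among all genes, with a median of -0.45. Ndufa2, of complex I, was at 83.5 and 87.1 CPM with vehicle and 41.7 and 37.1 CPM with the inhibitor (-1.11 ± 0.12, adjusted p = 2.41e-05), and Cox5a, of complex IV, went from 171 and 175 to 76.1 and 92.4 CPM (-1.04 ± 0.13). In fatty acid oxidation 17 of 28 fell (60.7%) and 0 rose (median -0.41); the number was 8 to 10 when any WT library was left out, 9 without the female one. Fabp3, a fatty acid binding protein, was at 127 and 142 CPM with vehicle and 46.3 and 47.3 CPM with the inhibitor (-1.52 ± 0.12, adjusted p = 1.89e-06). Glucose genes went both ways, with 9 of 23 higher (39.1%) and 5 lower (21.7%), the same counts without the female library, and 5 higher without vehicle replicate 1. The glucose carrier Slc2a1 rose from 1037 and 1150 to 3102 and 2503 CPM (1.36 ± 0.12) and the hexokinase Hk1 from 251 and 259 to 452 and 446 CPM (0.82 ± 0.086), whereas the carrier Slc2a2 of proximal cells fell from 197 and 217 to 76.3 and 80.7 CPM (-1.4 ± 0.18) and pyruvate carboxylase, Pcx, from 476 and 528 to 196 and 232 CPM (-1.23 ± 0.14). The summed proximal tubule marker share moved the same way as the falling enzymes, and its part was not tested.

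Falls outnumbered rises among detoxification genes. Of 22 genes of the NRF2 antioxidant response 14 were lower (63.6%, beside 11.7% of all) and 3 higher (13.6%, beside 13.8%), the same counts without the female library, and 9 or 8 lower without vehicle replicate 1 or 2 (median -0.55). Me1, malic enzyme, was at 150.2 and 154 CPM with vehicle and 60.1 and 70.5 CPM with the inhibitor (-1.22 ± 0.12, adjusted p = 1.15e-05). Nfe2l2, the gene of NRF2, rose from 239 and 252 to 415 and 499 CPM (0.90 ± 0.11). In the drug metabolism list 11 of 24 were lower (45.8%), 0 higher and 13 not called (9 lower without the female library; median -0.79), with Cyp2j5, a P450 enzyme of the kidney, at 727 and 629.5 CPM with vehicle and 189 and 228 CPM with the inhibitor (-1.7 ± 0.14, adjusted p = 4.34e-06).

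Among cytokine genes and NF-kB targets every call was a rise. Of 25 tested 13 were higher (52%, beside 13.8% of all), 0 lower and 12 not called (12 higher without the female library, 8 without vehicle replicate 1), with a median of 0.55. Csf1, the macrophage growth factor, was at 200.1 and 239 CPM with vehicle and 652 and 638 CPM with the inhibitor (1.56 ± 0.11, adjusted p = 8.16e-07), and Cxcl16 at 134 and 162 CPM with vehicle and 547 and 481 CPM with the inhibitor (1.8 ± 0.14, adjusted p = 5.2e-06). Tnf stayed scarce, at 0.498 and 1.12 CPM with vehicle and 5.1 and 5.82 CPM with the inhibitor (2.78 ± 0.33, adjusted p = 6.73e-05). Nfkb2 (0.55 ± 0.10), Birc3 (1.04 ± 0.12) and Tnfaip3 (0.66 ± 0.12), which are induced by NF-kB, were higher, while Nfkbia, its inhibitor, was at 333 and 323 CPM with vehicle and 358 and 290.3 CPM with the inhibitor (-0.016 ± 0.11, not called; 0.12 without the female library). Summed macrophage markers were also higher in the inhibitor libraries, as given above, and their part in these rises was not tested.

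Clock and steroid genes held further calls. Of 21 clock genes 7 were higher (33.3%, beside 13.8% of all) and 0 lower (10 and 1 without the female library). Per2, a repressor of the clock, was at 62.85 and 56.9 CPM with vehicle and 170.4 and 138 CPM with the inhibitor (1.36 ± 0.15, adjusted p = 2.7e-05), and Cry1, its partner, went from 34.9 and 31.6 to 68.65 and 66.9 CPM (1.03 ± 0.11); the time of day of collection was not given in the labels. In the glucocorticoid and mineralocorticoid list 7 of 22 were higher (31.8%) and 4 lower (18.2%, beside 11.7% of all; 8 and 4 without the female library). Sgk1, the kinase that stabilises the sodium channel, was at 366 and 367 CPM with vehicle and 848 and 812 CPM with the inhibitor (1.18 ± 0.10, adjusted p = 4.94e-06), and the glucocorticoid receptor Nr3c1 fell from 142 and 124 to 67.5 and 75.6 CPM (-0.89 ± 0.11).

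Of 29 growth factor ligands, receptors and feedback genes 9 were higher (31%, beside 13.8% of all) and 3 lower (10.3%, beside 11.7%; 10 and 4 without the female library). Fgfr2, the receptor of the ureteric epithelium, was at 58 and 73.4 CPM with vehicle and 225 and 261 CPM with the inhibitor (1.89 ± 0.12, adjusted p = 7.44e-07), and Tgfa, an EGF receptor ligand, went from 18.3 and 17.3 to 60.3 and 54.7 CPM (1.69 ± 0.11). Of 31 Wnt, Notch and Hippo genes 10 were higher (32.3%) and 3 lower (9.68%; 10 and 2 without the female library; 0 lower without vehicle replicate 1). Heyl, a Notch target, was at 21.2 and 28.6 CPM with vehicle and 138 and 128 CPM with the inhibitor (2.42 ± 0.18, adjusted p = 3.28e-06), and Wnt9b, a ligand made by the collecting duct, at 48 and 75 CPM with vehicle and 449.5 and 283 CPM with the inhibitor (2.58 ± 0.33, adjusted p = 0.00246). In the matrix list 10 of 27 were higher (37%) and 3 lower (11.1%; 9 and 2 without the female library, 6 higher without vehicle replicate 1), among the rises Tgfbr2 (1.13 ± 0.12). DESeq2 called 7 genes of that list lower in place of 3.

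Injury genes did not share a direction. Of 20, 8 were higher (40%, beside 13.8% of all) and 6 lower (30%, beside 11.7%), the same counts without the female library, and 3 lower without either vehicle library in turn. Anxa1 (1.59 ± 0.16) and Lgals3 (1.03 ± 0.13) rose, and Havcr1, the kidney injury molecule, fell from 5.18 and 4.725 to 1.99 and 1.2 CPM (-1.64 ± 0.27). Krt20, a marker of injured tubule cells, was among the leading falls above.

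Ribosome genes were lower more often than higher. Rpl23a, with the copies named above, is in the list of ribosomal proteins, and the part of copies in these counts was not tested. Of 74 cytosolic ribosomal proteins 21 fell and 6 rose (17 and 8 without the female library), a lower share of 28.4% beside 11.7% of all, and 33 fell and 2 rose under the filter of 5 CPM in 2 libraries. Rpl11 was at 277 and 261 CPM with vehicle and 145 and 158 CPM with the inhibitor (-0.83 ± 0.10, adjusted p = 6.33e-05). Of 26 ribosome biogenesis genes 7 fell (26.9%) and 0 rose (4 lower without the female library, 2 and 3 without vehicle replicates 1 and 2). Utp20, of the small subunit processome, went from 35.1 and 38.9 to 22.1 and 22.8 CPM (-0.72 ± 0.13).

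Proliferation genes rested on single libraries. Of 24 mitotic genes 1 was higher and 1 lower, a called share of 8.33% beside 25.6% of all, with 5 lower and 0 higher without the female library, and 0 called without either vehicle library. Mki67, the proliferation marker, was at 20.2 and 24.7 CPM with vehicle and 7.95 and 26.6 CPM with the inhibitor (-0.37 ± 0.50, adjusted p = 0.648); inhibitor 1 lay below both vehicle libraries and inhibitor 2 above them, and the fitted direction turned without inhibitor 1 (0.25). Aurkb, a mitotic kinase, was called lower at 1.74 and 1.36 CPM with vehicle and 0.464 and 0.506 CPM with the inhibitor (-1.67 ± 0.49, adjusted p = 0.0239) and kept the call in 0 of the 4 fits that left out a WT library.

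For cystic disease, Pkd1 was at 68.4 and 63.8 CPM with vehicle and 69 and 50.7 CPM with the inhibitor (-0.14 ± 0.15, adjusted p = 0.538) and Pkd2 at 185 and 208 CPM with vehicle and 165 and 184 CPM with the inhibitor (-0.17 ± 0.11, adjusted p = 0.261), neither called. Of 22 genes tested in that list 6 were higher (27.3%) and 1 lower (4.55%), 4 and 2 without the female library, 2 higher without vehicle replicate 1 and 3 higher by DESeq2. Among the rises, Glis3, a zinc finger transcription factor, went from 108 and 115 to 145 and 176 CPM (0.53 ± 0.11). Of 33 primary cilium genes 2 were higher and 1 lower, a called share of 9.09% beside 25.6% over all genes, and 0 and 1 without the female library.

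Because the sexes were not balanced, autosomal genes known to differ between male and female kidney were read apart. The list was not split by which sex is higher, so its counts and median are no readout of sex. It shares members with the proximal tubule list, Slc7a13 among them. Of 20 such genes 10 were lower (50%, beside 11.7% of all) and 1 higher (5%, beside 13.8%; 6 and 1 without the female library, 5 lower without vehicle replicate 1), with a median of -1.26, and -0.99 without the female library. Cyp7b1, an oxysterol hydroxylase, was at 6.475 and 6.26 CPM with vehicle and 33.3 and 34.4 CPM with the inhibitor (2.41 ± 0.15, adjusted p = 4.7e-07), high in both inhibitor libraries. Prlr, the prolactin receptor, was at 186 and 125 CPM with vehicle and 53 and 48.2 CPM with the inhibitor (-1.62 ± 0.23, adjusted p = 0.000738), low in both. In all, 517 of the higher and 591 of the lower genes lost their call without the female library. The strongest of these by the naming rule were Mcoln3 (2.67 ± 0.45), Tmem238l (2.27 ± 0.53) and Adh1 (1.92 ± 0.37) among rises, and Pvalb (-2.45 ± 0.41), G0s2 (-2.0 ± 0.57) and Ugt1a10 (-1.95 ± 0.43) among falls. Without that library their fold changes were 2.29, 2.58, 1.8, -2.35, -1.72 and -1.57, in the same order. Leaving out this library also removes 1 of 2 libraries from the group, and the part of sex cannot be told apart from that loss.

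**Figure D4:**
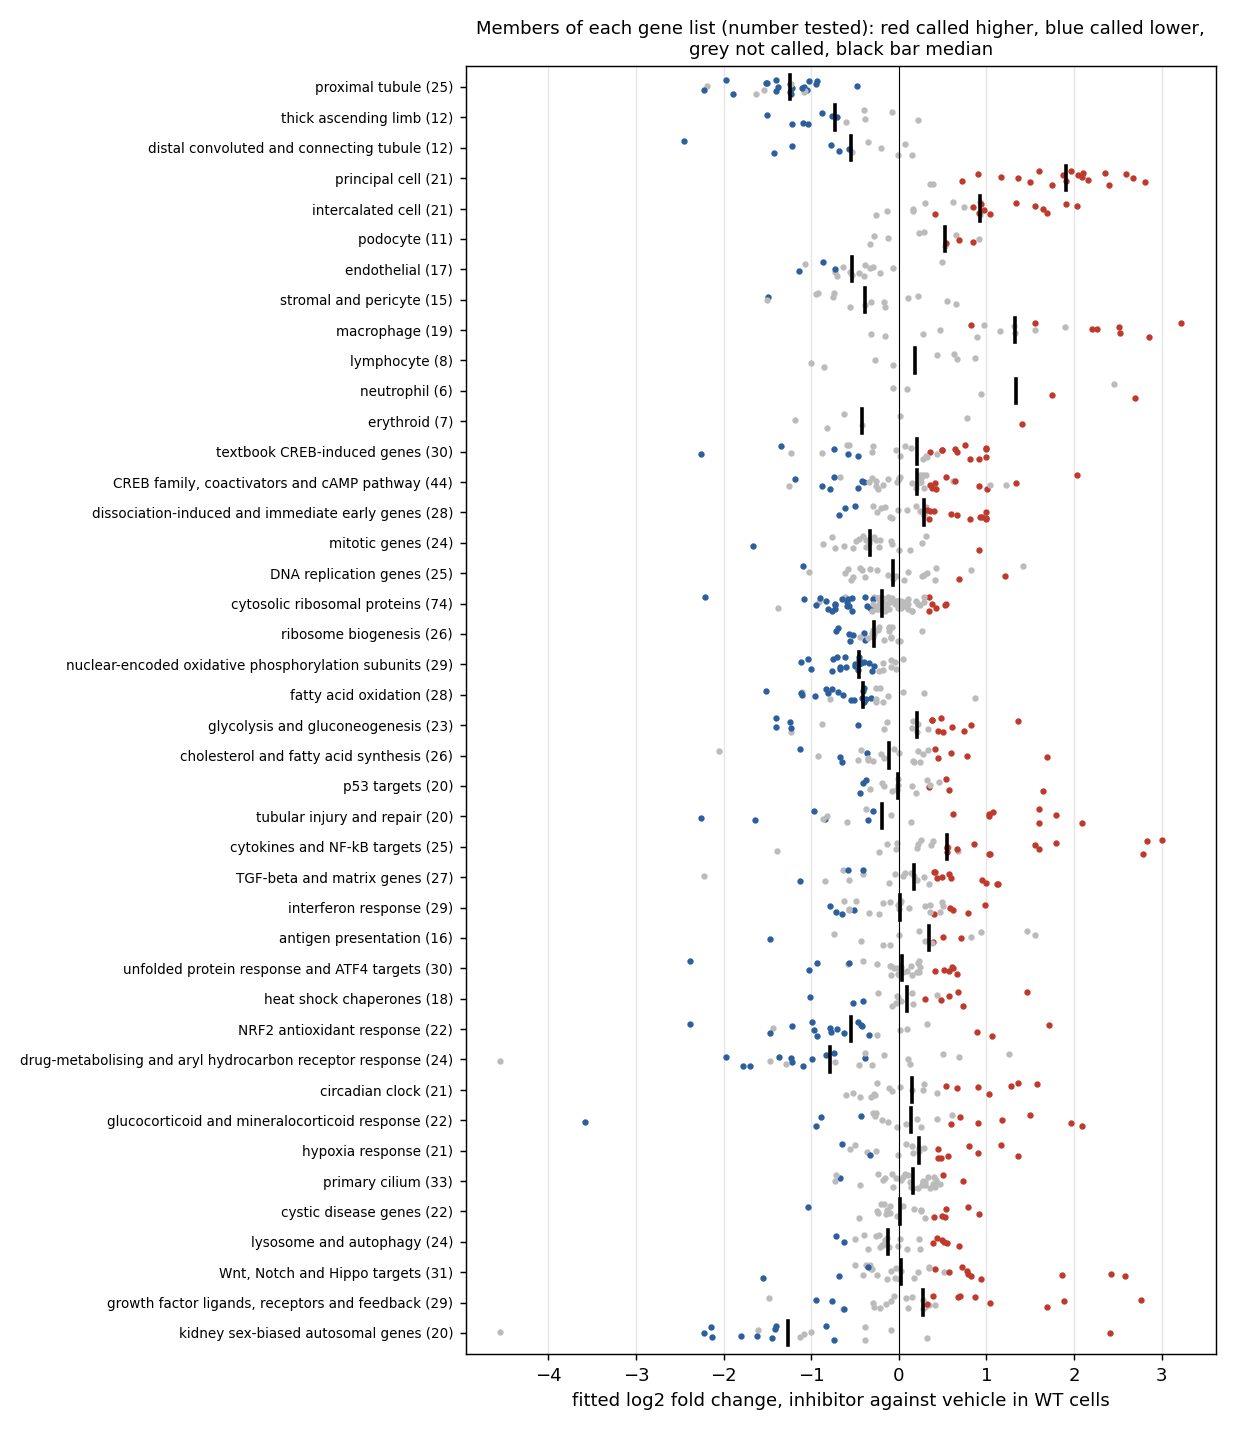
Fitted log2 fold change, inhibitor against vehicle in WT cells, of each tested member of the 42 gene lists, with the number tested in brackets; red points were called higher, blue lower and grey not called, and the black bar is the list's median. Principal cell markers lie to the right (median 1.91) and proximal tubule markers to the left (median -1.24), while the lists of CREB genes are centred near 0 (0.20 and 0.21).

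The response differed by genotype at 4475 autosomal genes (26.6%), tested as the interaction of genotype and inhibitor; the counts were 4895 without the female library, 2922 without WT vehicle replicate 1 and 2951 without ADPKD inhibitor replicate 2. Of the 4303 genes called in WT cells, 2057 were among them, but the WT response is part of both tests. The interaction was past the threshold for 20 of 25 proximal tubule markers. For 4 of these 20 the ADPKD vehicle libraries held a mean under 10 counts, so the size of the ADPKD change is poorly fixed. Slc34a1, at 4.46 and 3.91 CPM in ADPKD vehicle and 41.4 and 41.9 CPM in ADPKD inhibitor libraries, changed by -1.38 ± 0.10 in WT cells and 3.31 ± 0.13 in ADPKD cells (interaction adjusted p = 9.38e-09), and Lrp2 by -1.52 ± 0.20 and 2.1 ± 0.23 (interaction adjusted p = 7.1e-05). Among principal cell markers it was past the threshold for 12 of 21. Aqp2 changed by 2.4 ± 0.31 in WT and -0.23 ± 0.29 in ADPKD cells (interaction adjusted p = 0.00604), and Scnn1g by 2.67 ± 0.13 and 0.38 ± 0.13 (interaction adjusted p = 7.13e-06). Hsd11b2 changed by 2.59 ± 0.15 and 2.15 ± 0.15, with an interaction that did not pass the test (adjusted p = 0.138). For Fos the values were 0.99 ± 0.10 and 1.24 ± 0.10 (interaction adjusted p = 0.232), and for Crebbp 0.64 ± 0.12 and -0.029 ± 0.12 (interaction adjusted p = 0.00981).

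**Figure D5:**
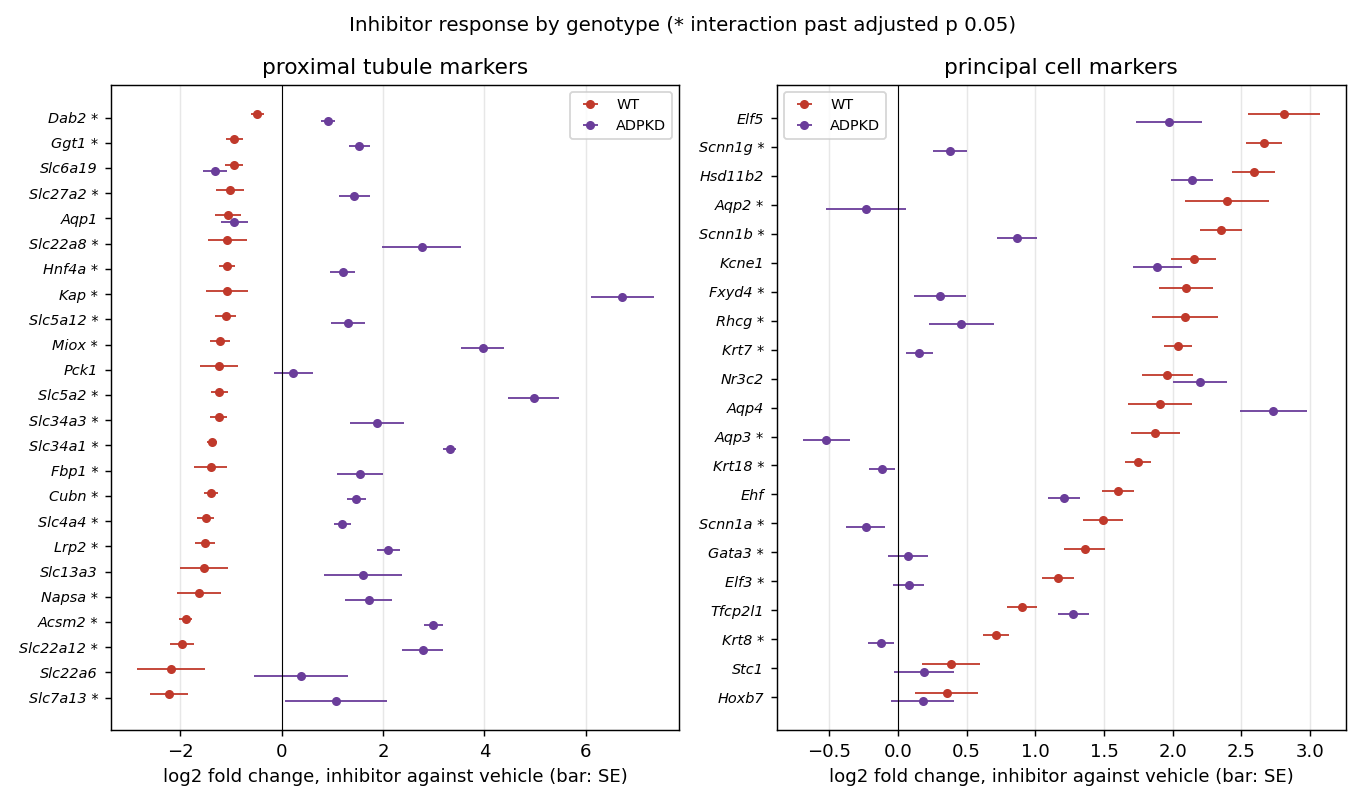
Log2 fold change, inhibitor against vehicle, of 24 proximal tubule markers (left) and each tested principal cell marker (right) in WT (red) and ADPKD (purple) cells, with bars for 1 SE and a star where the interaction passed an adjusted p of 0.05. Slc34a1 lies at -1.38 in WT and 3.31 in ADPKD cells, and the 24 WT values on the left are all below 0; 4 of the markers had a mean under 10 counts in the ADPKD vehicle libraries.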

How the data were processed

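RNA-seq counts of 8 libraries in 4 groups of 2 were used. HISAT2 2.1.0 mapped the reads to mm10 and counting used featureCounts 1.6.0, per the submitters' processing notes, which also name DESeq2. For the strand setting, the annotation release and reads with several matches, the choice is not given in the sources used here. Raw counts were deposited by the authors for 55304 gene symbols, of which 53569 (96.9%) were placed by GENCODE M21 and 788 more by RefSeq. Vehicle columns carry no treatment in their names and were matched to samples by genotype and number, by elimination. The 37 mitochondrially encoded rows held 0 counts in every library and gave no values.

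Counts were filtered with filterByExpr (minimum count 10, total 15), scaled by TMM and fitted in R 4.3.3 with edgeR 4.0.16's robust quasi-likelihood model of the 4 groups (4 residual degrees of freedom, common biological coefficient of variation 0.138). P-values were Benjamini-Hochberg adjusted over all 17440 genes tested, and SE is the absolute log2 fold change divided by the square root of F. The scripts were tested on simulated data. There, 12.7% of calls (16 genes) were false for the inhibitor in WT cells and 22.6% (21 genes) for the interaction. Both shares are above what the adjusted p threshold is meant to allow. Of simulated 2-fold changes 59.7% and 32.8% were recovered, and of 1.5-fold changes 22.4% and 5.97%, in the same order. Whether false calls are as frequent in the real libraries was not tested. Gene lists are described by counts and medians. Genes were named by rule: the 15 largest rises and 15 largest falls and the 10 most abundant, among named genes called in every fit that left out a WT library, without overlap and at 5 CPM or more; up to 6 called members per list by p, and other members by value; CREB genes, coactivators, Pkd1 and Pkd2; and up to 6 genes that lost their call without WT inhibitor replicate 2. Some genes the rule chose are not reported here, and lists and counts were left whole. The comparison, lists and promoter display were chosen with earlier results of these data known. Alternatives (scaling, filters, robust option, replicate block, WT libraries alone, DESeq2 1.42.0, a 1.5-fold minimum, each library left out) are given at the end.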

Additional observations from a re-analysis of the deposited data

Results flagged for a closer look

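Of the 48 genes named as leading changes, as abundant genes or as CREB genes with Pkd1 and Pkd2, 27 had a response that differed between the genotypes by edgeR's interaction test (adjusted p below 0.05), beside 26.6% of all autosomal genes. Most of the 48 were chosen by their WT response, which is part of the interaction, so the count cannot be compared fairly with that share. In 8 of these 27 an ADPKD group held a mean under 10 counts a library, and no difference is given for them, a limit set after the values were seen. Values are the log2 response in ADPKD cells minus that in WT cells. Among genes that rose in WT cells the difference was -1.4 for Trpv6, -2.72 for Adra1d, -2.09 for Lif, 1.49 for Col26a1, -1.08 for Omp and -2.19 for Ufsp1. For the abundant rises it was -1.95 for Cldn4, -1.48 for Sqstm1, -0.84 for Krt8 and -0.67 for Emp1. Among genes that fell in WT cells it was 2.23 for Bdnf and -0.98 for Rpl23a. For the abundant falls it was 1.13 for Gpx3 and 4.69 for Slc34a1. In the CREB set it was -0.8 for Crtc1, -0.56 for Crtc3, -0.67 for Crebbp and -0.53 for Ep300, and it was 0.43 for Pkd2. In 4 of the 19 the response was called in both genotypes in opposite directions. The 8 scarce genes, all falls in WT cells, were Cideb, Apob, Slc22a2, Akr1c21, Slc22a22, Dmgdh, Slc7a13 and Slc7a12. Their ADPKD levels ran from 0 to 0.706 CPM with vehicle and from 0.13 to 3.73 CPM with the inhibitor. Slc22a22 had 0 counts in both ADPKD vehicle libraries.

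Outside the autosomal genes, WT inhibitor replicate 2 held 17688 counts of Xist, where the other 7 libraries held at most 8. Groups of 2 libraries are too small to be screened for single outlying values.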

How the results depend on the processing

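WT results were recomputed under 12 alternatives, 4 of which leave out a WT library; the filter of 5 CPM gave no value for 5 of 284 named genes and 2 of 42 lists. Genes called in WT cells numbered 4303, and 2321 to 3879 when a WT library was left out (higher 1314 to 2051, lower 1007 to 1833). A minimum of 1.5-fold left 1205 genes (685 higher, 520 lower) and 1683 interactions. Interactions ranged from 2922 to 4895 when any library was left out. Every other alternative kept these counts within 1.5 times; DESeq2 called 3952 (1875 higher, 2077 lower) and another scaling (RLE) 4366 (2009 higher, 2357 lower). Little pairing by replicate number was seen: same-numbered deviations correlated at -0.037 to 0.081 between groups. With 2 libraries a group, and sex differing between the WT inhibitor libraries, these values cannot settle whether the numbers pair libraries. The replicate block gave 4313 calls (2328 higher, 1985 lower) and 4438 interactions. The direction of Crem reversed, from 0.02 to -0.05 with RLE scaling, -0.04 with DESeq2 and -0.09 with the filter of 5 CPM, and ranged from -0.11 to 0.13 when a WT library was left out; Pkd1 ranged from -0.38 to 0.06 in those fits and was above 0 without the female library. In the same fits the direction also turned for Areg (-0.02 to 0.66), Creb5 (-0.1 to 0.63), Mki67 (-1.5 to 0.25) and Nfkbia (-0.18 to 0.12), none of them called with all libraries. The cause was not tested. No other of the 284 genes changed direction where a value was had. With 2 libraries a group, low genes are the limit: 6.55% were called among the 4211 of lowest CPM.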
